A study of Mus musculus with 8 samples.

Results

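Collagen chains are the polypeptides that wind together into the triple helices of the extracellular matrix, and each chain is the product of 1 gene. Every probe set whose gene symbol reads Col, a number, a and a number was taken, which gave 44 chains of the 21212 probe sets on the arrays, as many as the RefSeq table lists for mouse. The platform's annotation named 42 of them, and Col6a3 and Col12a1 were named through the Entrez number in their row name, matched to the RefSeq table. The chains fell into 11 fibrillar, 8 basement membrane, 9 FACIT, 6 type VI and 4 transmembrane collagens and 6 others. The study compared gastrocnemius and plantaris muscle, both of the calf, of weight bearing (WB) mice with that of hind limb unloaded (HU) mice, whose hind legs bore no weight for 5 days, to find genes that take part in disuse atrophy. The study's methods name these muscles for RNA isolation, and the labels say muscle. All mice were wild type C57BL/6J females, 7 weeks old, housed individually and assigned to the groups at random. Each group had 4 separate RNA samples, each on its own array, so the number of arrays limits the precision of every value given here.

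The fibrillar collagens, foremost types I, III and V, form the banded fibres that carry tension in the connective tissue sheaths of muscle and in its tendons. The network-forming type IV collagens make the sheet of the basement membrane that wraps each muscle fibre and capillary, and types XV and XVIII lie at its outer face. FACIT collagens, short for fibril-associated collagens with interrupted triple helices, sit on the surface of fibrils. Type VI collagen forms beaded microfilaments close to the muscle basement membrane, and its loss causes muscle disease in humans and mice. In muscle most collagen is made by fibroblasts of the connective tissue, with basement membrane chains also made by endothelial and muscle cells.

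In unloaded muscle 17 of the 44 chains were lower and 7 were higher than under weight bearing, judged by a limma adjusted p under 0.05, and 20 did not pass the test. Over all probe sets on the arrays 11.0% were lower and 12.8% higher by the same rule. The HU arrays lay wholly below the WB arrays for 15 chains (12.0% of all probe sets) and wholly above them for 6 (15.5% of all probe sets), and the groups overlapped for the other 23. The falls reached 5.58-fold, with a median of 1.76-fold among the 17 chains, and 7 chains fell by at least 2-fold. The rises lay between 1.12-fold and 1.21-fold. The median log2 change of the 44 chains was -0.04, against 0.04 over all probe sets, since the falls of some chains stood beside small rises and uncalled values of others. The methods' t-test called 12 chains lower and 1 higher, and at an unadjusted limma p under 0.05 the counts were 18 and 11. That t-test was run here with unequal variances and a Benjamini-Hochberg adjustment, where the study used q-values. Its calls need not match the study's own. For the t-test and the unadjusted rule the shares of all probe sets were not computed. Their counts, here and by class, thus have no background beside them. Since whole muscle was measured, fewer cells of a type and less RNA per cell cannot be told apart in any of these values.

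**Figure D1:**
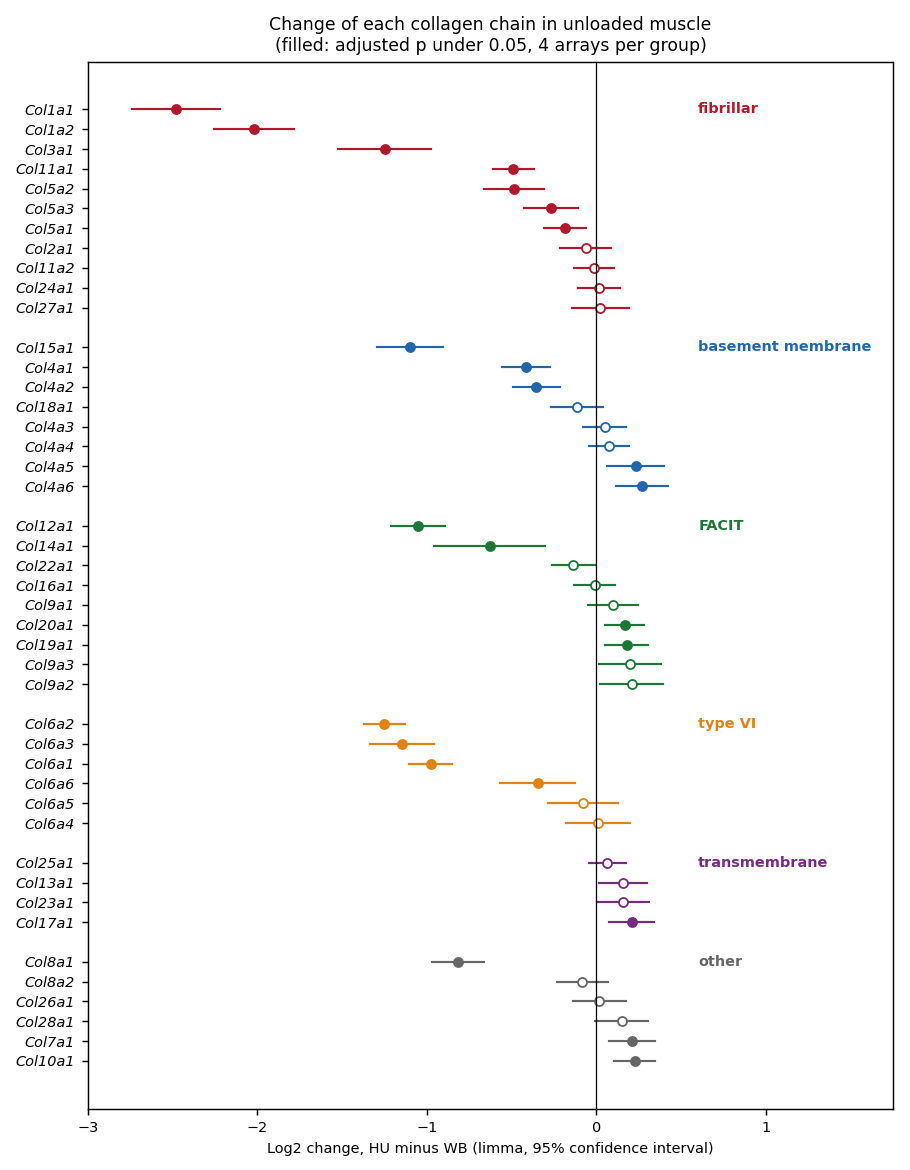
Log2 change (HU minus WB, x axis) of each of the 44 collagen chains (rows, grouped by class), from the limma fit of 4 arrays per group; lines are 95% confidence intervals and filled points passed an adjusted p of 0.05. Type I chains lie farthest to the left at -2.48 and -2.02, type VI chains Col6a1, Col6a2 and Col6a3 lie near -1, and no filled point lies to the right of 0.27.

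The array medians lay between 6.28 and 6.33 on the log2 scale, and no pair of arrays held identical values. Arrays of a group correlated at 0.996 to 0.997 and arrays of different groups at 0.992 to 0.994 across probe sets. Of 12 muscle fibre markers, whose summed linear level was 84645 to 88916 in WB and 78988 to 80522 in HU muscle, 4 were lower (Myh2, Mb, Pvalb and Acta1, the last named after its values were seen) and 0 higher. That count was 2 after quantile normalization and without WB replicate 2 or 3 or HU replicate 2, 3 or 4, and 7 with an intensity trend, while Actn3, picked out with its values known, was called higher by the methods' t-test (log2 change 0.07, adjusted p = 0.0152) and after quantile normalization. Among the chains, HU replicate 1 was often the lowest of the HU arrays, for 34 of 44 chains (77.3%, against 33.4% of all probe sets). WB replicates 1 and 2 both lay above WB replicates 3 and 4 for 23 chains (52.3%, against 18.5% of all probe sets) and for 14 of the 17 lower chains. Without HU replicate 1 the fit called 15 chains lower and 7 higher, and without WB replicate 1 it called 15 and 2.

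Type I collagen, the main fibre of tendon and muscle connective tissue, showed the largest fall. Of the 11 fibrillar chains 7 were lower and 0 higher (4 and 0 by the methods' t-test, 7 and 0 at an unadjusted p under 0.05), and their median log2 change was -0.27. Col1a1, which encodes the chain present in 2 copies per type I helix, measured 11.20, 11.24, 10.88 and 10.75 on the log2 scale on WB replicates 1 to 4, and 8.31, 8.61, 8.54 and 8.69 on HU replicates 1 to 4. The groups lay far apart, with every HU array more than 2 log2 units below every WB array. The mean fell from 11.02 ± 0.24 to 8.54 ± 0.16 (SD, 4 arrays each), a log2 change of -2.48 (SE 0.12, limma adjusted p = 3.68e-06) or 5.58-fold. This was the second-largest fall among the 21212 probe sets, by the fitted log2 change.

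Col1a2, the partner chain of type I collagen, measured 10.71, 10.78, 10.43 and 10.39 in WB and 8.39, 8.46, 8.67 and 8.71 in HU muscle. Again no HU array came near a WB array. The log2 change was -2.02 (SE 0.11, limma adjusted p = 4.57e-06), 4.06-fold, rank 5 among the falls of all probe sets. The window from 250 bases before to 50 bases after the RefSeq start of Col1a2 (GRCm38.p6, chr6:4505368-4505667, plus strand) is shown because it is the type I promoter the RefSeq table holds. Capitals mark CCAAT boxes (CCAAT, or ATTGG on the other strand) and GC boxes (GGGCGG, or CCGCCC), 2 of each.
Col1a2: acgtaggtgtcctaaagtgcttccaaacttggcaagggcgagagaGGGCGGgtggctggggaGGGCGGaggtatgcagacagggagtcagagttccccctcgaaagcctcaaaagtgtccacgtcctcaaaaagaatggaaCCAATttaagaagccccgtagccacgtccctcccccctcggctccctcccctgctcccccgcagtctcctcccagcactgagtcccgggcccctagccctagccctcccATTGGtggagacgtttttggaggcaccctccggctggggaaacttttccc
Such a match describes letters only and is no evidence of binding.

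Col3a1, the chain of type III collagen, which forms the finer fibres of the endomysium, measured 8.86, 9.03, 8.44 and 8.48 in WB and 7.30, 7.51, 7.49 and 7.53 in HU muscle. WB replicates 1 and 2 were the higher of the WB arrays and HU replicate 1 was the lowest of all, and the groups did not overlap. The log2 change was -1.25 (SE 0.12, limma adjusted p = 0.000119), 2.37-fold. Col11a1, a chain that starts and limits thin fibrils, measured 6.94, 7.00, 6.89 and 6.87 against 6.35, 6.53, 6.45 and 6.42. Its spread within each group was small, with SDs of 0.06 and 0.07, and it fell 1.40-fold (log2 change -0.49, SE 0.05, limma adjusted p = 0.000223).

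The 3 type V chains, whose helices lie inside type I fibrils and set their diameter, were all lower, by less than the type I chains. Col5a2 measured 7.06, 7.07, 6.79 and 6.75 in WB and 6.42, 6.38, 6.47 and 6.49 in HU muscle, 1.40-fold lower (log2 change -0.48, SE 0.08, limma adjusted p = 0.0021, methods' t-test adjusted p = 0.0558). Col5a1, the chain most type V helices share, measured 7.07, 7.22, 7.12 and 7.12 against 6.86, 7.06, 6.94 and 6.92. Its groups were separated by less than 0.01, and its fall of 1.14-fold (log2 change -0.19, SE 0.06, limma adjusted p = 0.0388) no longer passed with WB replicate 2, 3 or 4 or HU replicate 1, 3 or 4 left out, by the methods' t-test or after quantile normalization. Col5a3 fell as well (log2 change -0.27, SE 0.07, limma adjusted p = 0.0221), a call lost without WB replicate 1, WB replicate 2 or HU replicate 4 and by the methods' t-test.

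The remaining fibrillar chains are found in cartilage or in developing bone, as is Col11a1, which was lower. Col2a1, the main chain of cartilage collagen, had a log2 change of -0.06 (95% confidence interval -0.21 to 0.09), Col11a2 -0.01 (-0.13 to 0.10), Col24a1 0.01 (-0.11 to 0.14) and Col27a1 0.02 (-0.15 to 0.19). None passed the test (limma adjusted p 0.514 to 0.864), and their groups overlapped. Chondrocyte and bone cell markers had a median log2 change of -0.03, with 1 of 9 lower (Matn3, -0.34, limma adjusted p = 0.0305) and 0 higher. The call of Matn3 was lost by the methods' t-test (adjusted p = 0.116) and with any 1 array other than WB replicate 3 or HU replicate 4 left out, and 1 marker was called higher without HU replicate 1. Ibsp, a bone marker picked out with its values known, measured 6.65 on WB replicate 2 and 3.53 to 3.83 on the other arrays. Of the other markers of this list, Runx2 (6.15, other arrays 5.69 to 5.97), Acan (4.69) and Cnmd (5.14) were also highest on WB replicate 2. Bglap was highest on HU replicate 2, Sp7 and Matn3 on WB replicate 4, and Sox9 and Matn1 on HU replicate 3. The part of bone tissue in the values of WB replicate 2 was not tested.

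**Figure D2:**
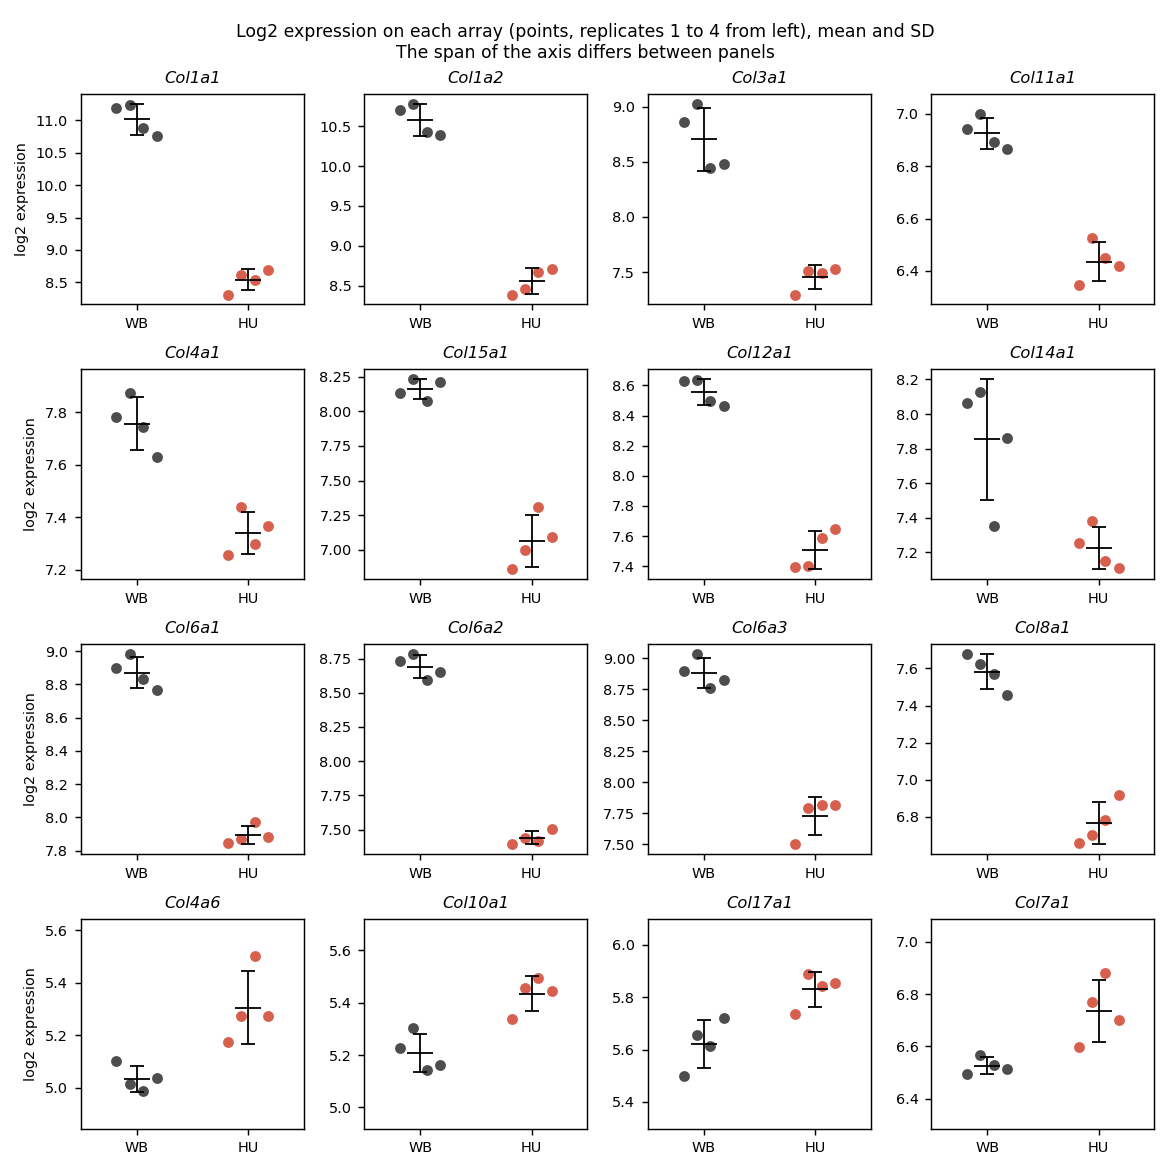
Log2 expression (y axis, span differs between panels) of 16 collagen chains on each array; points are WB and HU replicates 1 to 4 from left to right, and bars are the mean and SD of 4 arrays. In the panels of Col1a1, Col1a2, Col6a1, Col6a2 and Col12a1 the groups are separated by far more than their spread, while Col14a1 has a WB array within the HU range.

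Among basement membrane collagens the chains went both ways. Of 8 chains 3 were lower (Col15a1, Col4a1 and Col4a2) and 2 higher (Col4a5 and Col4a6), with a median log2 change of -0.03; the methods' t-test called 3 and 0, and at an unadjusted p under 0.05 the counts were again 3 and 2. Col15a1, the chain of type XV collagen, which bridges the basement membrane to nearby fibrils and in mice keeps muscle fibres and capillaries intact, measured 8.13, 8.23, 8.08 and 8.22 in WB and 6.86, 7.00, 7.31 and 7.09 in HU muscle. The WB arrays were close together, and the highest HU array lay below the lowest WB array. The log2 change was -1.10 (SE 0.09, limma adjusted p = 3.32e-05), 2.14-fold.

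Col4a1 and Col4a2 encode the common type IV helix, found in nearly every basement membrane. Col4a1 measured 7.78, 7.87, 7.75 and 7.63 in WB and 7.26, 7.44, 7.30 and 7.37 in HU muscle, and fell 1.34-fold (log2 change -0.42, SE 0.06, limma adjusted p = 0.00137). Col4a2 measured 7.54, 7.59, 7.41 and 7.37 against 7.07, 7.20, 7.07 and 7.16, and fell 1.28-fold (log2 change -0.35, SE 0.06, limma adjusted p = 0.00315). For both chains WB replicates 1 and 2 and HU replicate 2 were the highest of their group, and the groups did not overlap. The genes are neighbours on chromosome 8 and are read in opposite directions. Their RefSeq windows (GRCm38.p6, Col4a1 at chr8:11312777-11313076 on the minus strand and Col4a2 at chr8:11312555-11312854 on the plus strand) are shown because they overlap, and capitals mark the 78 bases they share, read from opposite strands.
Col4a1: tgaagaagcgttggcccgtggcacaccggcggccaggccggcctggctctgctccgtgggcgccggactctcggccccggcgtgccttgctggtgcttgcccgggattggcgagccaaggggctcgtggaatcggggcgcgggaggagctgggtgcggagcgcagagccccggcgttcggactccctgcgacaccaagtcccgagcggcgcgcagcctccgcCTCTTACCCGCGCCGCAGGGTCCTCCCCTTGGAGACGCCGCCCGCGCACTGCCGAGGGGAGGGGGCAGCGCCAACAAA
Col4a2: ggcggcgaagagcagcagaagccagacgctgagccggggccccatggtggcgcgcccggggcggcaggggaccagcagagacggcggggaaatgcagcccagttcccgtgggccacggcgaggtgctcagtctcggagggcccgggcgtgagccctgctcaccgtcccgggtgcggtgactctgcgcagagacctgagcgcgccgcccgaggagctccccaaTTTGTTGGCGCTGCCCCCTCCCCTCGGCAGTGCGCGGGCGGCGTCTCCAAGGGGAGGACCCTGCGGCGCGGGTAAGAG
Both windows also hold 1 CCAAT box, and they hold 1 and 3 GC boxes, not marked here.

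Col4a5 and Col4a6 lie next to each other on the X chromosome and belong to type IV helices of more restricted distribution, such as those of smooth muscle and of some epithelia. Col4a6 measured 5.10, 5.01, 4.99 and 5.04 in WB and 5.17, 5.27, 5.50 and 5.27 in HU muscle, with HU replicate 3 the highest, and rose 1.21-fold (log2 change 0.27, SE 0.07, limma adjusted p = 0.0186, methods' t-test adjusted p = 0.101). Col4a5 measured 5.56, 5.68, 5.48 and 5.68 against 5.63, 5.88, 5.92 and 5.89. Its groups overlapped through HU replicate 1, and its rise was 1.17-fold (log2 change 0.23, SE 0.08, limma adjusted p = 0.049). That call was lost without any 1 of the 4 WB arrays or of HU replicates 2 to 4. It was also lost by the methods' t-test (adjusted p = 0.127) and after quantile normalization (limma adjusted p = 0.0627). The chains of the kidney filter, Col4a3 and Col4a4, had log2 changes of 0.05 and 0.08 and did not pass the test. Col18a1, the precursor of endostatin and a relative of Col15a1, measured 6.49, 6.69, 6.48 and 6.62 in WB and 6.36, 6.61, 6.41 and 6.44 in HU muscle, a log2 change of -0.11 (95% confidence interval -0.27 to 0.04, limma adjusted p = 0.259).

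Of the 9 FACIT chains, the pair known from dense connective tissue was lower. Col12a1 and Col14a1 were called lower, Col19a1 and Col20a1 higher, and 5 chains did not pass, with a median log2 change of 0.10 (1 lower and 0 higher by the methods' t-test, 3 and 4 at an unadjusted p under 0.05). Col12a1, the chain of type XII collagen, which coats fibrils under tension in tendon and fascia and is mutated in a human myopathy, measured 8.63, 8.64, 8.50 and 8.47 in WB and 7.39, 7.40, 7.59 and 7.65 in HU muscle. All HU arrays lay below all WB arrays, and the fall was 2.07-fold (log2 change -1.05, SE 0.07, limma adjusted p = 1.45e-05).

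Col14a1, the chain of type XIV collagen, which regulates early fibril growth in tendon, measured 8.07, 8.13, 7.36 and 7.86 in WB and 7.25, 7.38, 7.15 and 7.11 in HU muscle. WB replicate 3 fell within the HU range, so the groups overlapped. The fall of 1.55-fold (log2 change -0.63, SE 0.15, limma adjusted p = 0.0127) did not pass the methods' t-test (adjusted p = 0.118), and the log2 change was -0.79 without WB replicate 3. Col22a1, the chain of the myotendinous junction, had a log2 change of -0.14 (95% confidence interval -0.26 to -0.01, limma adjusted p = 0.108).

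Col20a1 measured 6.40, 6.38, 6.40 and 6.46 in WB and 6.51, 6.61, 6.52 and 6.67 in HU muscle, and rose 1.12-fold (limma adjusted p = 0.0395). Col19a1 measured 5.12, 5.20, 5.21 and 5.17 against 5.28, 5.28, 5.49 and 5.37, and rose 1.13-fold (limma adjusted p = 0.047). The groups of these chains did not overlap, yet the calls lay close to the threshold. Col20a1 lost its call without WB replicate 1, 2 or 3 or HU replicate 2 or 4, and Col19a1 without any 1 of the WB arrays or of HU replicates 2 to 4. With all arrays kept, both calls were lost by the methods' t-test, with an intensity trend and with a block for the replicate number. That of Col19a1 was also lost after quantile normalization. The type IX chains Col9a1, Col9a2 and Col9a3, which decorate cartilage fibrils, had log2 changes of 0.10, 0.21 and 0.20, and Col16a1 -0.01, with no adjusted p under 0.05.

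Type VI collagen was the class with the lowest median log2 change, -0.66, with 4 of 6 chains lower and 0 higher (3 and 0 by the methods' t-test, 4 and 0 at an unadjusted p under 0.05). The 3 chains that assemble into the common type VI monomer fell by between 1.97-fold and 2.38-fold. Col6a2 measured 8.73, 8.79, 8.59 and 8.65 in WB and 7.39, 7.44, 7.42 and 7.50 in HU muscle, a fall of 2.38-fold (log2 change -1.25, SE 0.05, limma adjusted p = 2.82e-06). Col6a1 measured 8.90, 8.99, 8.84 and 8.77 against 7.85, 7.87, 7.97 and 7.88, a fall of 1.97-fold (log2 change -0.98, SE 0.06, limma adjusted p = 7.83e-06). Col6a3, the largest chain of the monomer, measured 8.90, 9.04, 8.76 and 8.82 against 7.50, 7.79, 7.82 and 7.82, a fall of 2.22-fold (log2 change -1.15, SE 0.08, limma adjusted p = 2.08e-05). In each of these chains the groups stood apart by more than 0.7 on the log2 scale, and HU replicate 1 was the lowest array.

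Col6a6, 1 of 3 chains related to Col6a3 that can take its place, measured 5.94, 5.88, 5.57 and 5.95 in WB and 5.30, 5.61, 5.62 and 5.41 in HU muscle. WB replicate 3 lay below HU replicates 2 and 3, so the groups overlapped. The fall of 1.27-fold (log2 change -0.35, SE 0.10, limma adjusted p = 0.0311) was lost by the methods' t-test and without WB replicate 1, 2 or 4 or HU replicate 1 or 4. Its neighbours on chromosome 9, Col6a5 and Col6a4, had log2 changes of -0.08 (95% confidence interval -0.29 to 0.13) and 0.01 (-0.18 to 0.20), and neither passed the test.

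Col6a1 and Col6a2 are neighbours on chromosome 10, both read from the minus strand. Their RefSeq windows (GRCm38.p6, Col6a1 at chr10:76725995-76726294 and Col6a2 at chr10:76623581-76623880) are shown because the chains fell together while the windows differ in what they hold. The window of Col6a1 held neither box, and that of Col6a2 held 1 GC box, in capitals.
Col6a1: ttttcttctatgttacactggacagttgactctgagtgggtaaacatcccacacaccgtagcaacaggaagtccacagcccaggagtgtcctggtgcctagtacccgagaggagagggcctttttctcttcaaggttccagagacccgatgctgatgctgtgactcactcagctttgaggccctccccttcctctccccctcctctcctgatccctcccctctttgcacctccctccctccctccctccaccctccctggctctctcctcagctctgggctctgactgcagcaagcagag
Col6a2: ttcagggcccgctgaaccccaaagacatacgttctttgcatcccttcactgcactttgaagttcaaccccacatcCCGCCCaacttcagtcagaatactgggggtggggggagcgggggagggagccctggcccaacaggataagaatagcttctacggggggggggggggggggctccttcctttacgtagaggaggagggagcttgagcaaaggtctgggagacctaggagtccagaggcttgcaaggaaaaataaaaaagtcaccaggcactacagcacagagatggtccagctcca
RefSeq windows of the same length were found for 35 of the 44 chains, 38 windows in all, and were searched on both strands for 3 motifs, none of which contains another. A CCAAT box was in 13 of the 38 windows (37.4% of the 32851 windows of all genes), a GC box in 23 (35.7%) and a TATA box (TATAAA, or TTTATA) in 5 (13.6%). By chain, a GC box was in 9 of 13 lower chains, 3 of 7 higher chains and 10 of 15 uncalled chains with an entry, and a CCAAT box in 5, 3 and 5 of them. The shares of lower and of uncalled chains with either box were close to each other, and no test was made of them.

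The transmembrane collagens, which sit in the membranes of cells, had 0 chains lower and 1 higher among 4, with a median log2 change of 0.16 (0 and 0 by the methods' t-test, 0 and 3 at an unadjusted p under 0.05). Col17a1, a chain of the hemidesmosomes that anchor skin epithelium, measured 5.50, 5.66, 5.61 and 5.72 in WB and 5.74, 5.89, 5.84 and 5.85 in HU muscle. The groups were separated by less than 0.02, and the rise was 1.15-fold (log2 change 0.21, SE 0.06, limma adjusted p = 0.0298). Its call was lost without WB replicate 1 or 3 or any 1 of HU replicates 2 to 4. It was also lost by the methods' t-test (adjusted p = 0.071) and after quantile normalization (limma adjusted p = 0.0553). Col13a1, a chain of the neuromuscular junction, had a log2 change of 0.16 (95% confidence interval 0.01 to 0.30, limma adjusted p = 0.104), Col23a1 0.16 (0.00 to 0.31, 0.128) and Col25a1, which mouse motor axons need to enter muscle, 0.07 (-0.04 to 0.17, 0.349). Of 6 keratinocyte markers 1 was higher, Trp63 (log2 change 0.63, limma adjusted p = 0.0013), and 0 were lower. The other 5, Krt5, Krt14, Krt1, Krt10 and Dsg3, had overlapping groups and log2 changes of -0.07 to 0.15. The summed linear level of all 6 was 286 to 336 in WB and 380 to 401 in HU muscle, a difference carried mostly by Trp63, and the part of these cells in the value of Col17a1 was not tested.

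The 6 chains outside these classes held 1 lower and 2 higher (1 and 1 by the methods' t-test, 1 and 2 at an unadjusted p under 0.05), with a median log2 change of 0.08. Col8a1, a short-chain collagen of vessel walls and of the cornea, measured 7.68, 7.62, 7.57 and 7.46 in WB and 6.66, 6.70, 6.78 and 6.92 in HU muscle. The groups lay apart, and the fall was 1.76-fold (log2 change -0.82, SE 0.07, limma adjusted p = 4.74e-05). Its partner Col8a2 had a log2 change of -0.08 (95% confidence interval -0.23 to 0.07). Col10a1, the chain of growing cartilage, measured 5.23, 5.30, 5.14 and 5.16 in WB and 5.34, 5.46, 5.50 and 5.45 in HU muscle, a rise of 1.17-fold (log2 change 0.22, SE 0.06, limma adjusted p = 0.0155, methods' t-test adjusted p = 0.0383). Col7a1, which forms the anchoring fibrils of skin, measured 6.49, 6.57, 6.53 and 6.51 against 6.60, 6.77, 6.88 and 6.70. This was a rise of 1.16-fold (log2 change 0.21, SE 0.06, limma adjusted p = 0.0333). Its call was lost by the methods' t-test (adjusted p = 0.124) and without any 1 of the WB arrays or of HU replicates 2 to 4. Col26a1 and Col28a1, the latter known from peripheral nerve, had log2 changes of 0.02 and 0.15 and did not pass.

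The direction of a chain's change went with the brightness of its probe set, the mean log2 value over all 8 arrays. No chain lay in the dimmest 25% of probe sets. Of the 28 chains in the brighter 50% 16 were lower and 2 higher, with a median log2 change of -0.31, and of the 16 in the dimmer 50% 1 was lower and 5 higher, with a median of 0.09. Over all probe sets 18.4% of the brighter 50% were lower and 16.5% higher, and 3.49% and 9.07% of the dimmer 50%. In the part of the dimmer 50% above the dimmest 25%, which held the 16 dim chains, the shares were 5.86% and 12.1%. The median log2 change of all probe sets was 0.01 in the brighter 50% and 0.07 in the dimmer 50%, and 0.08 between the dimmest 25% and the median brightness, where the 16 dim chains lay. After quantile normalization the last of these medians was 0.03, and 4 of the 7 rises still passed. The 7 rises were between 0.17 and 0.27 on the log2 scale.

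**Figure D3:**
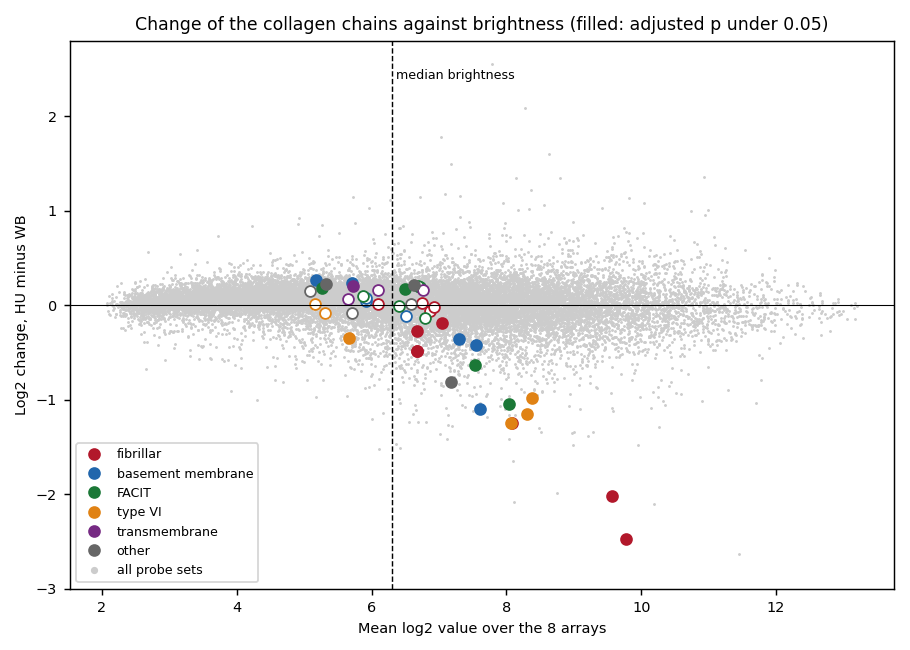
Log2 change (HU minus WB, y axis) against the mean log2 value over the 8 arrays (x axis) for the 44 collagen chains, coloured by class and filled where the adjusted p was under 0.05, over all probe sets (grey). The dashed line marks the median brightness; 16 of the 17 lower chains lie to its right, and 5 of the 7 higher chains lie to its left.

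For chains that assemble together or lie in the same structure, 8 pairs were compared by the difference of their log2 values on each array. An exact two-sided permutation test over the 70 ways to split the arrays was used, whose smallest p is 0.0286, adjusted over the 8 pairs. In type I collagen the difference Col1a1 minus Col1a2 was 0.49, 0.45, 0.45 and 0.37 in WB and -0.08, 0.15, -0.13 and -0.02 in HU muscle. No array of a group reached the other group, so Col1a1 fell by more than its partner, by 0.46 (SE 0.07, exact p = 0.0286, adjusted p = 0.0381). Col1a1 also fell by more than Col3a1, by 1.23 (SE 0.06), and Col15a1 fell by more than Col18a1 changed, by 0.99 (SE 0.11), both at the same exact p and adjusted p.

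In type VI collagen Col6a1 minus Col6a2 was 0.17, 0.20, 0.24 and 0.12 in WB and 0.45, 0.43, 0.55 and 0.38 in HU muscle, so that Col6a2 fell by 0.27 more (SE 0.05, exact p = 0.0286, adjusted p = 0.0381). Col6a1 against Col6a3 differed by 0.17 (SE 0.07, exact p = 0.0857, adjusted p = 0.0857), and the groups overlapped. Without HU replicate 1 that difference was 0.11. In type V collagen Col5a2 fell by 0.30 more than Col5a1 (SE 0.10), and in type IV collagen Col4a1 fell by 0.06 more than Col4a2 (SE 0.02), both with exact p = 0.0286 and adjusted p = 0.0381. Col12a1 against Col14a1 differed by -0.42 (SE 0.19, exact p = 0.0571, adjusted p = 0.0653), with overlapping groups. Each of the 6 calls stood at the smallest p the design allows, and with HU replicate 1, 2 or 3 left out none of them passed. Without HU replicate 4 or WB replicate 3 the call of Col4a1 against Col4a2 was also lost, as was that of Col5a1 against Col5a2 without HU replicate 4. How far each probe set's signal follows its RNA was not measured here.

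**Figure D4:**
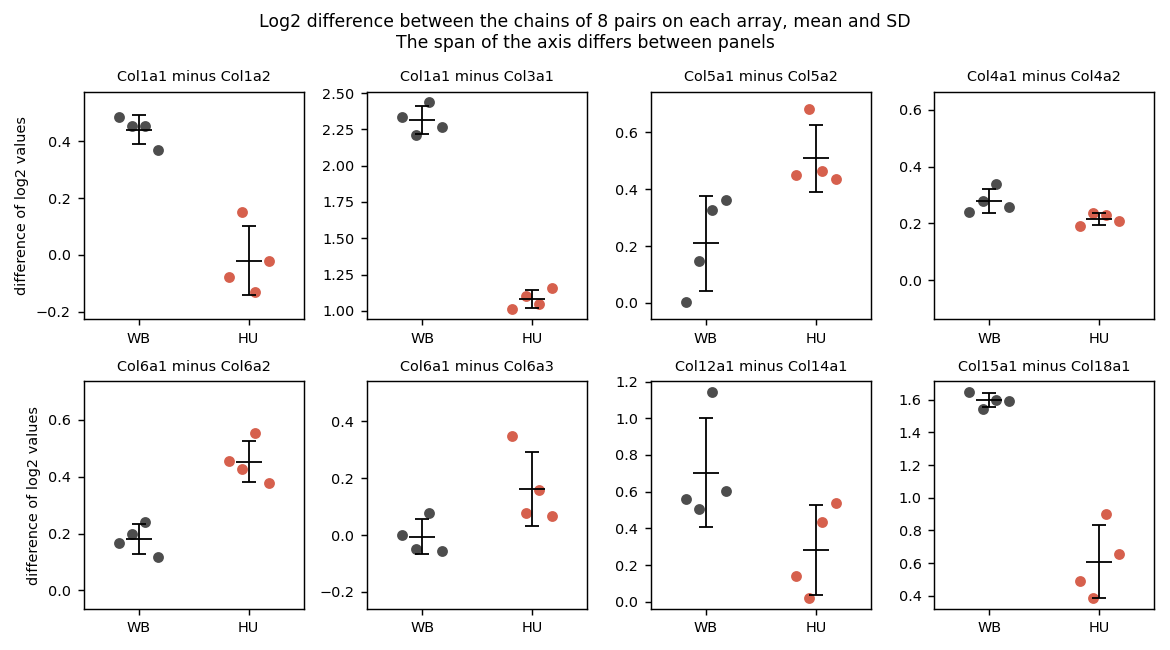
Difference of the log2 values of the chains of each of 8 pairs (y axis, span differs between panels) on each array; points are WB and HU replicates 1 to 4 from left to right, bars are the mean and SD of 4 arrays. The groups do not overlap in 6 panels, and in those of Col6a1 minus Col6a3 and Col12a1 minus Col14a1 they do.

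Genes that make, process and bind collagen were lower in larger number than higher. Over all probe sets 11.0% were lower and 12.8% higher at a limma adjusted p under 0.05. When the probe sets were split by brightness into 4 equal groups, 20.8% of the brightest group were lower and 19.2% higher. None of the gene lists, the markers above included, was tested against these shares. Of 17 genes of collagen folding and hydroxylation in the endoplasmic reticulum 12 were lower and 1 higher (P4hb, 0.26, named after its values were seen), with a median log2 change of -0.34. Serpinh1, the collagen chaperone, had a log2 change of -1.07 (limma adjusted p = 2e-05), P4ha1, a catalytic subunit of prolyl hydroxylase, -0.92 (4.57e-06), and Crtap, of the prolyl 3-hydroxylase complex, -0.74 (3.48e-05). Of 14 genes of propeptide cleavage and crosslinking 9 were lower and 0 higher, with a median of -0.43. Pcolce, which speeds the removal of the C-terminal propeptide, changed by -1.09, Loxl2, a lysyl oxidase, by -0.94 and Adamts3, a protease of the N-terminal propeptide, by -0.71.

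Of 16 proteins that bind collagen fibrils 11 were lower and 1 higher (Thbs1, 0.72, named after its values were seen, methods' t-test adjusted p = 0.0618), with a median log2 change of -0.66, and 7 of the 16 stand in another list as well. Postn, periostin, changed by -2.08, Kera, keratocan, by -1.65 and Fn1, fibronectin, by -1.29. Among 12 other basement membrane proteins 10 were lower and 1 higher (Lama5, 0.43, named after its values were seen), with a median of -0.38, and Sparc, a collagen-binding glycoprotein, changed by -1.03, Nid1, nidogen, by -0.60 and Pxdn, which crosslinks type IV collagen, by -0.60.

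Of 9 collagen receptors 4 were lower and 0 higher, with a median log2 change of -0.18: Itga2 (-0.44), Mrc2 (-0.43), Ddr2 (-0.43) and, named after its values were seen, Itgb1 (-0.26). Of 10 collagen-degrading proteases 3 were lower and 0 higher, with a median of -0.21, namely Ctsk (-0.88), Fap (-0.81) and Mmp16 (-0.41), of which Fap alone passed the methods' t-test. Ctsk was highest on WB replicate 2 (7.75, other WB arrays 6.97 to 7.13), as was Fap (7.02, other WB arrays 6.77 to 6.91). Mmp1a, Mmp8, Mmp9, Mmp13 and Mmp14, named with their values known, were also highest on that array. Mmp1b, Mmp2 and Mmp16 were highest on other arrays. Of 13 TGF-beta ligands and connective tissue regulators 3 were lower and 2 higher, with a median of -0.06, and the methods' t-test called 1 and 2. These counts are too small to set the list apart from the shares of all probe sets given above. The changes named next are thus those of individual genes and not of the list. Tgfb3, a ligand, changed by -0.53, while Smad7, the inhibitor of the pathway, rose by 0.45 and Tgfbr1, a receptor, by 0.44. Tgfb1 (-0.29) and Smad3 (-0.35) also passed and were picked out with their values known. The 3 lower genes became 2 without WB replicate 1, 2 or 4 or HU replicate 2.

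**Figure D5:**
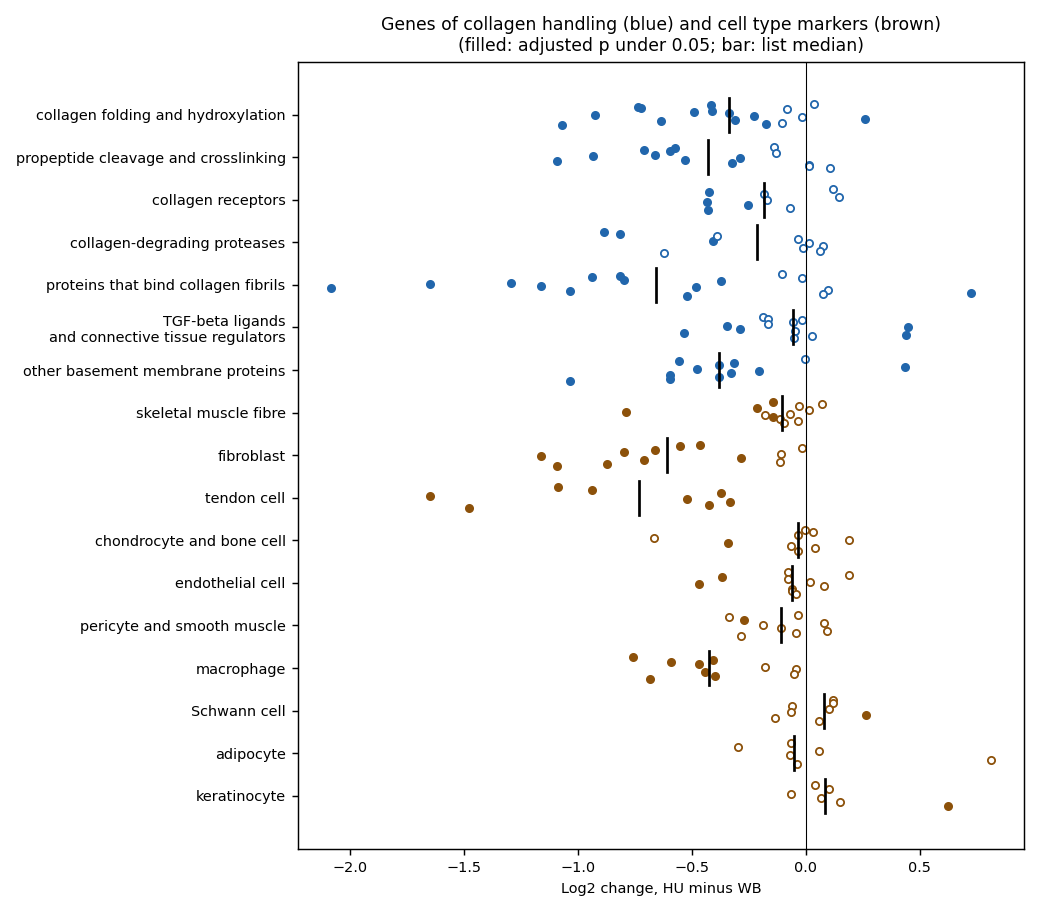
Log2 change (HU minus WB, x axis) of the genes of 7 lists of collagen handling (blue) and 10 lists of cell type markers (brown), 1 point per gene, filled where the limma adjusted p was under 0.05, with the list median as a bar. The medians of the fibroblast and tendon lists lie at -0.61 and -0.73, while those of endothelial, Schwann, adipocyte and keratinocyte markers lie within 0.09 of 0.

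Most markers of tendon cells and fibroblasts, which make fibrillar collagen, were lower in HU muscle. All 8 measured tendon cell markers were lower, with a median log2 change of -0.73 and a summed linear level of 7872 to 8745 in WB and 5041 to 5573 in HU muscle. Kera changed by -1.65, Tnmd, tenomodulin, by -1.48 and Chad by -1.09. Of 12 fibroblast markers 9 were lower and 0 higher, with a median of -0.61 and a summed level of 15297 to 16372 against 12969 to 13314, Lum changed by -1.16, Thy1 by -1.09 and Pi16 by -0.87. The fibroblast markers Dcn (-0.02, limma adjusted p = 0.782), Gsn (-0.11, 0.197) and Pdgfra (-0.11, 0.0898), singled out after their values were seen, did not pass. Of the measured genes of either list 3 stand in another list as well, and muscle connective tissue and tendon share many of them. The part of a changed share of these cells, or of tendon taken along at dissection, in the falls of the chains was not tested.

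Among the other cell types 7 of 10 macrophage markers were lower and 0 higher, with a median log2 change of -0.43 and a summed linear level of 2444 to 2920 in WB and 1827 to 2320 in HU muscle. Adgre1 changed by -0.76, Mrc1 by -0.69 and C1qb by -0.59. Endothelial markers, of cells that also make type IV collagen, had 2 of 10 lower (Kdr, -0.47, and Emcn, -0.37) and 0 higher, with summed levels of 4317 to 4786 against 4136 to 4342. Of 9 pericyte and smooth muscle markers 1 was lower (Cspg4, -0.27; 2 without HU replicate 1) and 0 higher, with summed levels of 6884 to 7664 against 6768 to 7193. Of 8 Schwann cell markers 0 were lower and 1 higher (Prx, 0.26, a call the methods' t-test did not make), and of 6 adipocyte markers none passed (1 higher without HU replicate 3), with Lep at 0.81 (limma adjusted p = 0.18) and Cfd at -0.30 (0.25). Their part in the chains' values was not tested. The counts of endothelial, pericyte and Schwann cell markers are too small to set those lists apart from the shares of all probe sets given above.

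The calls of Col1a1, Col1a2, Col3a1, Col11a1, Col15a1, Col4a1, Col4a2, Col12a1, Col6a1, Col6a2, Col6a3 and Col8a1 were kept under each of the 17 alternatives run, the left-out arrays among them. Of the other lower chains, Col14a1 and Col5a2 lost the call by the methods' t-test alone. Of the higher chains, Col4a6 lost it by the methods' t-test alone and Col10a1 at a minimum change of 1.2-fold alone. No chain called in either direction changed sign under any alternative.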

How the data were processed

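Total RNA of 4 WB and 4 HU muscle samples (RIN of at least 8.0) was hybridised to Affymetrix Mouse Gene 1.0 ST arrays. The authors computed log2 expression by RMA with a Brainarray custom probe set definition and deposited log2 values for 21212 probe sets. The release of that definition and the genome build behind it were not given in the sources used here. All 8 sample columns were used. Symbols came from the platform's annotation (18786 probe sets) or from the Entrez number in the row name matched to RefSeq (1917), 503 had none and 6 had several.

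The values were used as deposited, without a filter. HU and WB were compared with limma 3.58.1 (lmFit, eBayes, two-sided, R 4.3.3), adjusted by Benjamini-Hochberg over all probe sets and called at 0.05. The fit was tested on simulated data. Python 3.11.15, pandas 2.3.3, numpy 2.4.6 and scipy 1.17.1 did the rest. Promoter windows are RefSeq's, on GRCm38.p6.

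The members and gene lists were chosen with earlier results of these data known. Every collagen chain is accounted for. Values on every array are given for up to 4 called chains with the largest change in each class and for the chains of the 8 pairs; those of Col4a5, the neighbour of Col4a6, were added with its values known. From each other list up to 3 called genes with the largest change are named, or the 2 with the smallest p. Mia3 and Gp6 were not measured, and 1 gene of the TGF-beta list is not reported here and was left out of its counts.

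Alternatives were the methods' t-test (unequal variances), an intensity trend with robust variance, array weights, quantile normalization, a common median of 0 for the arrays, a filter on the dimmest 25% or 50% of probe sets, a block for the replicate number, a 1.2-fold minimum and each array left out. The t-test was adjusted by Benjamini-Hochberg and not by the study's q-value. Counting only chains the annotation names was added after the data were seen. Summed marker levels are sums of 2 to the power of the log2 values.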

Additional observations from a re-analysis of the deposited data

Results flagged for a closer look

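In 5 of 88 groups of 4 arrays, 1 per chain and condition, the lowest array stood apart from the other arrays of its group by more than Dixon's critical value for the gap over the group's range. Chance gives about 1 in 20 such groups. All 5 were HU replicate 1. Its log2 value was 7.30 for Col3a1 (the nearest other HU array was at 7.49), 7.50 for Col6a3 (7.79), 5.63 for Col4a5 (5.88), 6.28 for Col16a1 (6.44) and 6.53 for Col27a1 (6.81). Without this array the log2 changes of Col3a1, Col6a3 and Col4a5 kept their calls, and those of Col16a1 and Col27a1 stayed uncalled.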

How the results depend on the processing

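The count of 17 lower chains lay between 12 and 17 under every alternative run. The count of 7 higher chains was 1 by the methods' t-test and at the 1.2-fold minimum, 2 without the dimmest 50% of probe sets, 4 after quantile normalization and 2 to 7 with each array left out. By the methods' t-test 4 fibrillar and 1 FACIT chain were lower, and 0 basement membrane, 0 FACIT, 0 transmembrane and 1 other chain were higher. Without the dimmest 50% the higher chains were 0 basement membrane, 1 FACIT, 0 transmembrane and 1 other, and the median log2 change of the remaining 28 chains was -0.31, since the 16 dim chains are left out. After quantile normalization they were 1 basement membrane, 1 FACIT and 0 transmembrane, and at the 1.2-fold minimum 1, 0 and 0, with 0 others. With the intensity trend 0 FACIT chains were higher. Without Col6a3 and Col12a1, which the annotation does not name, 1 FACIT chain was lower. With each array left out the higher chains were 1 to 2 basement membrane, 0 to 2 FACIT, 0 to 1 transmembrane and 1 to 2 others.

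No paired source is given by the labels beyond the shared replicate numbers. Deviations of same-numbered arrays correlated at 0.0242, 0.0366, 0.12 and 0.0954, and 3 of 4 HU arrays correlated best with the WB array of their own number. With the replicate number as a block 16 chains were lower and 5 higher, and 0 FACIT chains were higher. The chains that no longer passed were Col6a6, which left 3 lower type VI chains, Col19a1 and Col20a1. The muscle fibre markers then held 2 lower and the adipocyte markers 1 higher, and the methods' t-test left 11, 7, 3, 10 and 8 lower genes in the lists of folding, cleavage, receptors, fibril binding and other basement membrane proteins, and 8, 7 and 5 lower fibroblast, tendon and macrophage markers.

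Leaving out 1 array leaves 35 splits, and the pair differences then lay between -0.52 and -0.42 for Col1a1 minus Col1a2, -1.27 and -1.19 for Col1a1 minus Col3a1, 0.23 and 0.35 for Col5a1 minus Col5a2, -0.076 and -0.044 for Col4a1 minus Col4a2, 0.24 and 0.30 for Col6a1 minus Col6a2, 0.11 and 0.20 for Col6a1 minus Col6a3, -0.51 and -0.28 for Col12a1 minus Col14a1 and -1.08 and -0.91 for Col15a1 minus Col18a1. Each of the 6 calls was lost without some HU array, and Col4a1 minus Col4a2 also without WB replicate 3, while Col12a1 minus Col14a1 passed without HU replicate 4. Through the adjustment such a loss depends on the other pairs as well. Of the chain values under an alternative 660 kept their side of the threshold, 72 kept the direction but no longer passed, and 0 called values changed sign. RMA keeps no measure of background, so whether a dim probe set detects its RNA was not tested.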
